A study of Sesbania grandiflora with 21 samples.

Results

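Leaves labelled Y-S were compared with leaves labelled ck in the legume tree Sesbania grandiflora, with 3 libraries in each group out of 21 libraries in 7 groups. The 6 libraries were taken by their titles, which give only a group name, a replicate number and the tissue, leaf. The letters Y, S and ck are not expanded in the labels, and the series title speaks of drought and salt stress in combination. The sources used here give no dose, duration, plant age or plant line, and do not say whether the leaves of a group came from separate plants. The p-values therefore refer to the variation among libraries, and part of it may be technical. The other 5 groups, Y-L, DS-S, DS-L, DS+Y-S and DS+Y-L, also hold 3 leaf libraries each. Messenger RNA was enriched on oligo(dT) beads, sequenced and counted per gene of an assembly with Trinity-style identifiers, which come without gene names, descriptions, sequences or positions. The tissue could therefore not be checked against leaf markers, no pathway could be examined, and identifiers are printed for only 4 genes.

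Leaves meet drought and salt with partly shared responses. Both limit the water that roots deliver, and plants answer with the hormone abscisic acid, closed stomata and compatible solutes such as proline. Salt also brings sodium, which plants exclude, move into vacuoles or pump out. Many of these responses are seen in transcript levels, which is what the libraries measure. In bulk leaf RNA, fewer cells of a type and less RNA per cell cannot be told apart.

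The number of genes called between Y-S and ck leaves depended on the tool and the filter. Out of 38211 genes tested, 0 (0%) were called by edgeR's quasi-likelihood test at an adjusted p under 0.05, and 1216 (3.18%) had an unadjusted p under 0.05. Of these, 782 (2.05%) were higher in Y-S leaves and 434 (1.14%) lower. On the same 21 libraries DESeq2 called 79 genes (0.229%), and edgeR without a low-count filter called 615 (0.631%). The smallest p among genes whose libraries did not overlap belonged to TRINITY_DN1507_c0_g1, which averaged 14.7 ± 4.41 CPM in Y-S leaves and 0.888 ± 0.162 CPM in ck leaves (SD, n = 3 each). CPM is the count of a gene scaled to the total of its library times a TMM factor, which lay between 0.861 and 1.16 in the 6 libraries. A set of 34 genes was at 0 counts in every library of 1 group and at 1 CPM or more in every library of the other. For these genes the replicates of DS-L and of DS-S also split, 1 like ck and 2 like Y-S.

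Total counts of the 6 libraries lay between 16738824 and 19002636, within the range of all 21, from 16431940 to 20138058. All 3 Y-S libraries had fewer counts than all 3 ck libraries. Y-S replicates 1, 2 and 3 had 16738824, 17060737 and 17650075, against 18450395, 19002636 and 18403292 in ck. The mean difference in total was -1468900 counts (exact permutation test, two-sided p = 0.1, the smallest possible). The 3 Y-S libraries had counts on 57442, 55003 and 53367 genes, and the 3 ck libraries on 54120, 60733 and 61117 of the 97500 deposited. The mean difference, -3386 genes in Y-S against ck leaves, was within the spread (exact permutation test, two-sided p = 0.3, n = 3 each, smallest possible p = 0.1). With 1 library left out it ran from -5654, without ck replicate 1, to -2156, without ck replicate 3. At an equal total of 16738824 counts the numbers were 57442, 54880 and 52939 in Y-S leaves, against 53304, 59742 and 60352 in ck leaves. The 100 most abundant genes took 18.1%, 19.3% and 15.7% of the counts in Y-S leaves, against 24.99%, 16.7% and 19.7% in ck leaves (exact permutation p = 0.4, two-sided). Neither the number of genes with counts nor this share separated the groups, whereas the total counts did.

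Y-S replicate 3 and ck replicate 3 each held many genes far from the other libraries of their group. Y-S replicate 3 was at least 4-fold above both other Y-S libraries in 516 genes and at least 4-fold below both in 420, counting genes at 5 CPM or more on the higher side. The same counts were 82 and 103 for Y-S replicate 1 and 26 and 10 for replicate 2. For ck replicate 3 they were 486 above and 143 below, against 74 and 32 for ck replicate 1 and 18 and 46 for replicate 2. With any 1 of the 6 libraries left out edgeR called 0 genes. The number at an unadjusted p under 0.05 was 1740, 1137 and 669 without Y-S replicates 1, 2 and 3. It was 1000, 782 and 1646 without ck replicates 1, 2 and 3.

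**Figure D1:**
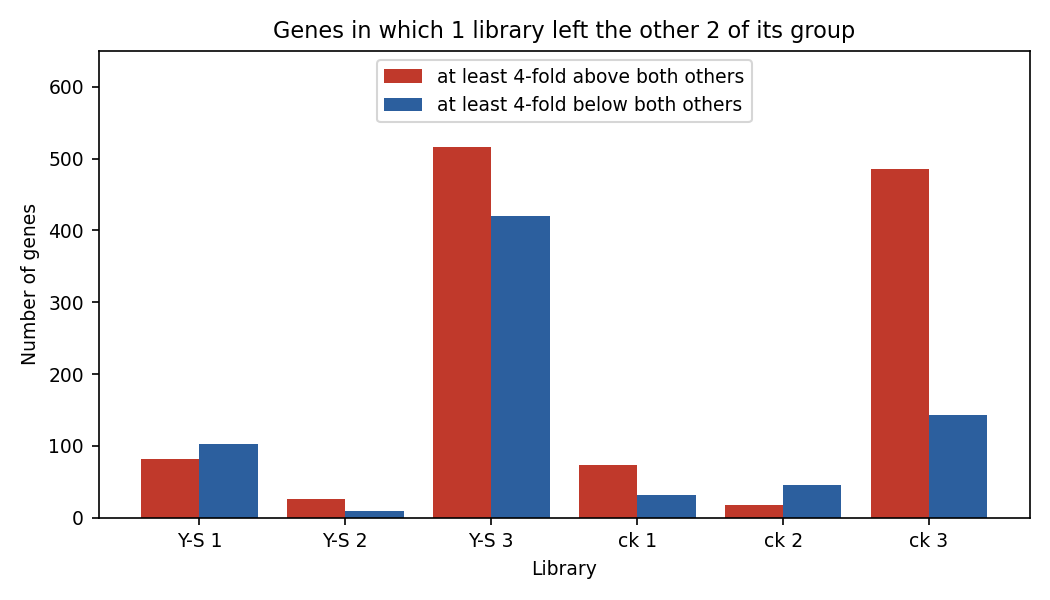
Number of genes (vertical axis) in which each of the 6 libraries (horizontal axis) lay at least 4-fold above (red) or below (blue) both other libraries of its group, with 5 CPM or more on the higher side. Y-S 3, with 516 and 420 genes, and ck 3, with 486 and 143, exceed the other libraries of their groups.

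Distances between libraries did not follow the groups. The median absolute difference in log2 CPM was 0.425 between Y-S replicates 1 and 2, while Y-S replicate 3 lay 0.817 and 0.733 from them. Within ck the 3 pairs lay between 0.547 and 0.588, so by this typical distance ck replicate 3 did not stand apart. The 9 pairs of a Y-S with a ck library ran from 0.451, for Y-S replicate 1 with ck replicate 2, to 0.964, for Y-S replicate 3 with ck replicate 2. Pearson's r of log2 CPM across genes, which are not independent replicates, was 0.951 for the closest pair in Y-S, 0.949 in ck and 0.951 between groups. By this measure a Y-S library was as close to a ck library as to another Y-S library.

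The median absolute log2 fold change of Y-S over ck was 0.393 over all genes tested. The median SD of log2 CPM between single libraries was 0.579 within Y-S and 0.511 within ck. Y-S had the wider spread in 56.1% of genes. A fold change of 2 or more was fitted for 6486 genes, which is 17% of those tested, with 3373 higher in Y-S and 3113 lower. The median log2 fold change was 0.01, which the scaling of the libraries holds near 0. The fitted changes carried a median standard error of 0.76 on the log2 scale, and 30.9% of genes had one under 0.5.

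Differences were smaller in genes of higher level, up to 100 CPM. Among 13388 genes averaging under 1 CPM the median absolute log2 fold change was 0.63, with a median SD of 0.781 in Y-S and 0.696 in ck. Among 7268 genes from 20 to 100 CPM it was 0.24, with median SDs of 0.37 in Y-S and 0.328 in ck. At 100 CPM and over, in 1968 genes, it was 0.30, with median SDs of 0.471 in Y-S and 0.461 in ck. The differences are between means of 3 libraries and the SDs between single libraries, so their sizes are not set against each other. By effective length, the length implied by a gene's counts and its FPKM (fragments per kilobase scaled to library size), the median absolute log2 fold change was 0.55 in genes under 406.3 bases and 0.26 in genes over 1389 bases, the outer of 4 equal classes.

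**Figure D2:**
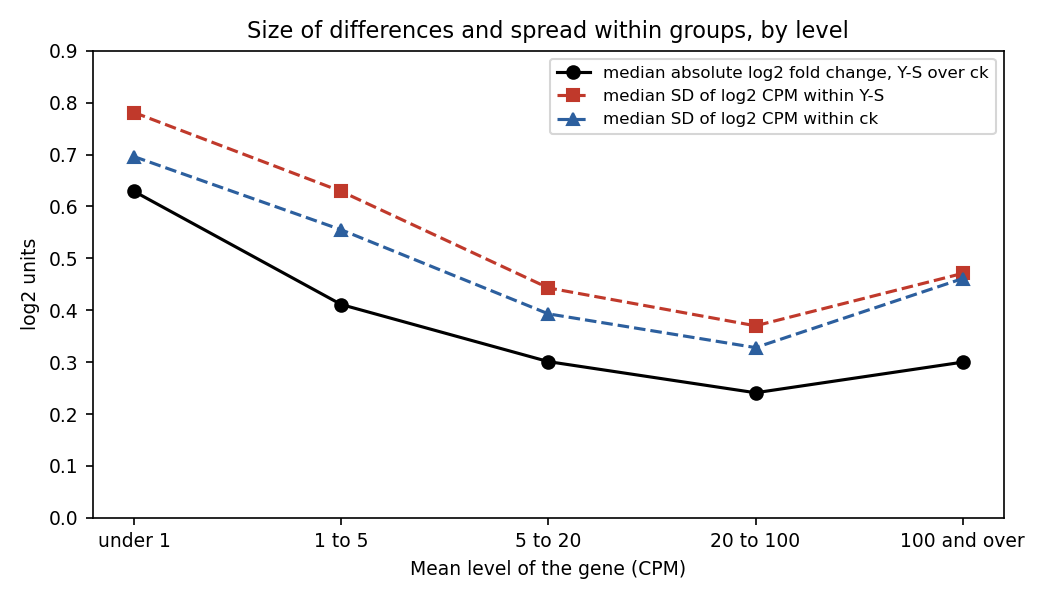
Median absolute log2 fold change of Y-S over ck (black) and median SD of log2 CPM within Y-S (red) and within ck (blue), in log2 units, for genes in 5 classes of mean level in CPM. All 3 lines are highest under 1 CPM and lowest at 20 to 100 CPM, where the black line is at 0.24. The black line refers to means of 3 libraries and the dashed lines to single libraries, so their heights are on different footings.

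All 3 Y-S libraries lay outside the range of the 3 ck libraries in 3754 genes, which is 9.82% of those tested. Y-S was above ck in 1983 of them (5.19%) and below in 1771 (4.63%). If the 6 libraries were exchangeable, a gene would separate this way with a probability of up to 0.1, so 9.82% is near that share. In the deposited FPKM values the count of non-overlapping genes was 3872 of 38211, split into 2842 above and 1030 below. FPKM differs from CPM both in library scaling and in a gene length that varies by library. With DESeq2 size factors in place of TMM, the split was 1927 above and 1834 below. These factors are not the scaling of FPKM, and what scaling or length contributes to the FPKM split was not tested. In 405 genes (1.06%) the libraries did not overlap, the fold change was at least 2 and the higher group averaged at least 5 CPM. Of these, 269 (0.704%) were higher in Y-S leaves, with a median log2 fold change of 1.62, and 136 (0.356%) were lower, with a median log2 fold change of 1.62 in the other direction. The nearest libraries of the 2 groups were at least 2-fold apart in 61 of the 269 and 28 of the 136. In 24 of the 269, 1 Y-S library was at least 4-fold above the other Y-S libraries, and in 23 of these it was replicate 3. In 9 of the 136, 1 ck library was at least 4-fold above the other ck libraries, and in 7 of these it was replicate 3.

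The 269 genes took 1.03%, 1.68% and 2.04% of the counts of Y-S replicates 1, 2 and 3, against 0.299%, 0.458% and 0.366% in ck replicates 1, 2 and 3. The 136 genes took 0.256%, 0.172% and 0.135% in the Y-S libraries, against 0.494%, 0.651% and 1.94% in the ck libraries. The higher genes were thus most abundant in Y-S replicate 3 and the lower genes in ck replicate 3, the libraries with the most genes 4-fold above the rest of their group. These shares describe genes chosen for not overlapping and test nothing.

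**Figure D3:**
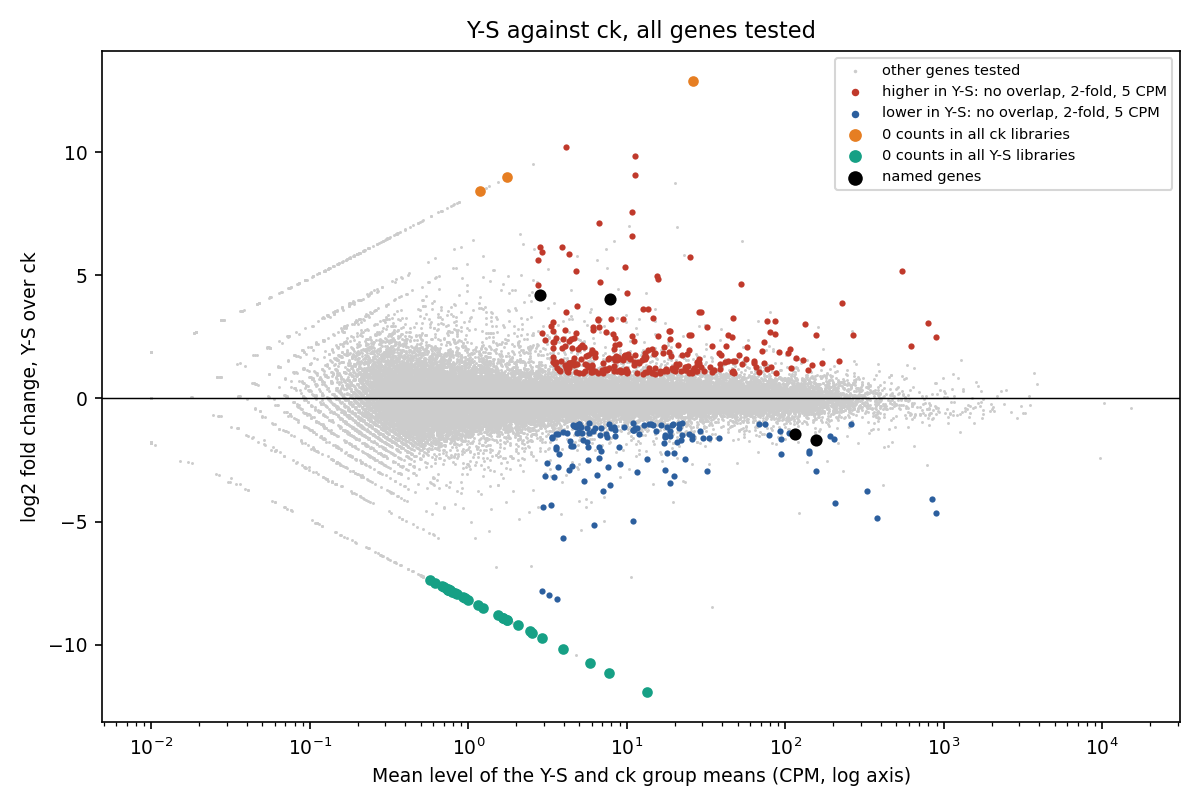
Fitted log2 fold change of Y-S over ck (vertical axis) against the mean of the 2 group means in CPM (horizontal log axis) for all 38211 genes tested. Red and blue points are genes with no overlap between the groups, a fold of at least 2 and 5 CPM or more, orange and green points are the genes at 0 counts in every ck or every Y-S library and at 1 CPM or more throughout the other group, and black points are the 4 named genes, at 4.04, 4.21, -1.46 and -1.68.

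Among those 405 genes, the 2 higher and the 2 lower with the smallest p are named. TRINITY_DN1507_c0_g1 had 9.61, 16.7 and 17.7 CPM in Y-S replicates 1, 2 and 3, against 1.07, 0.821 and 0.771 CPM in ck replicates 1, 2 and 3. The groups were far from overlapping, with the lowest Y-S library 8.96-fold above the highest ck library. In edgeR its log2 fold change was 4.04 (SE 0.71, adjusted p = 0.688). DESeq2 gave it an adjusted p of 6.67e-06, the fit to these 6 libraries alone 0.0461 and the fit without a low-count filter 1.88e-09. Over the 15 alternative fits its log2 fold change stayed between 3.88 and 4.26, with an edgeR, limma or DESeq2 adjusted p from 1.88e-09 to 1. Its FPKM was 15.9, 29.1 and 26.3 in Y-S leaves, against 1.34, 2.26 and 1.28 in ck leaves.

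The same gene was high outside Y-S as well. All 15 libraries of the other 5 groups were above the highest ck library, with a lowest of 4.001, a median of 12.1 and a highest of 38.2 CPM. Group means were 12.5 CPM in Y-L, 12.2 in DS-S, 10.3 in DS-L, 11.2 in DS+Y-S and 17.3 in DS+Y-L. Y-S differed from Y-L by a log2 fold change of 0.23 (SE 0.61) and from DS-S by 0.27 (SE 0.61, edgeR adjusted p = 1 for each), both within the error.

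TRINITY_DN7500_c0_g1 had 6.83, 6.64 and 2.75 CPM in Y-S leaves, against 0.316, 0.137 and 0.411 CPM in ck leaves. No library overlapped, and the ck values rest on 5, 3 and 8 counts, against 125, 119 and 48 counts in Y-S. Its fitted difference was 4.21 on the log2 scale (SE 0.92), with an edgeR adjusted p of 1, and DESeq2 gave an adjusted p of 0.000914. Of the 15 libraries of the other groups, 13 were above the highest ck library, with a median of 1.90 CPM and a highest of 4.12 CPM. Y-S replicates 1 and 2 were the highest of all 21 libraries for this gene, yet the differences from Y-L (log2 fold change 2.03, SE 0.82) and from DS-S (1.76, SE 0.81) did not pass the test (edgeR adjusted p = 1 for each).

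TRINITY_DN5925_c5_g1, the longest of the 4 with an effective length of 10240 bases, had 67.7, 72.7 and 44.0 CPM in Y-S leaves, against 165, 123 and 218 CPM in ck leaves. The highest Y-S library was 1.70-fold below the lowest ck library. The fitted difference was -1.46 on the log2 scale (SE 0.36), with an adjusted p of 1 in edgeR and 0.0484 in DESeq2. Of the 15 other libraries, 13 were below the lowest ck library, with a median of 59.1 CPM. Y-L leaves averaged 49.6 CPM, and Y-S differed from them by a log2 fold change of 0.31 (SE 0.35), within the error.

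TRINITY_DN3840_c0_g2 had 112, 66.3 and 45.8 CPM in Y-S leaves, against 227, 337 and 155 CPM in ck leaves. The gap was narrow, with 1.39-fold between the nearest libraries. On the log2 scale Y-S was at -1.68 relative to ck (SE 0.41), with an adjusted p of 1 in edgeR and 0.0401 in DESeq2. Among the 15 libraries of the other groups, 11 were below the lowest ck library and 1 above the highest, with a median of 118 CPM. Means were 107 CPM in DS+Y-S, 127 in DS+Y-L and 162 in DS-L leaves. In this gene Y-S leaves were near DS-S leaves, which averaged 65.8 CPM, with a log2 fold change of 0.18 (SE 0.40) between them. Y-L leaves averaged 233 CPM, against 240 CPM in ck, but were spread over 118, 209 and 373 CPM in replicates 1, 2 and 3. The log2 fold change of Y-S over Y-L was -1.64 (SE 0.41, edgeR adjusted p = 1). With 1 Y-L library left out it ran from -1.96, without replicate 1, to -1.13, without replicate 3. Without a low-count filter the difference from Y-L had an edgeR adjusted p of 0.0339.

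**Figure D4:**
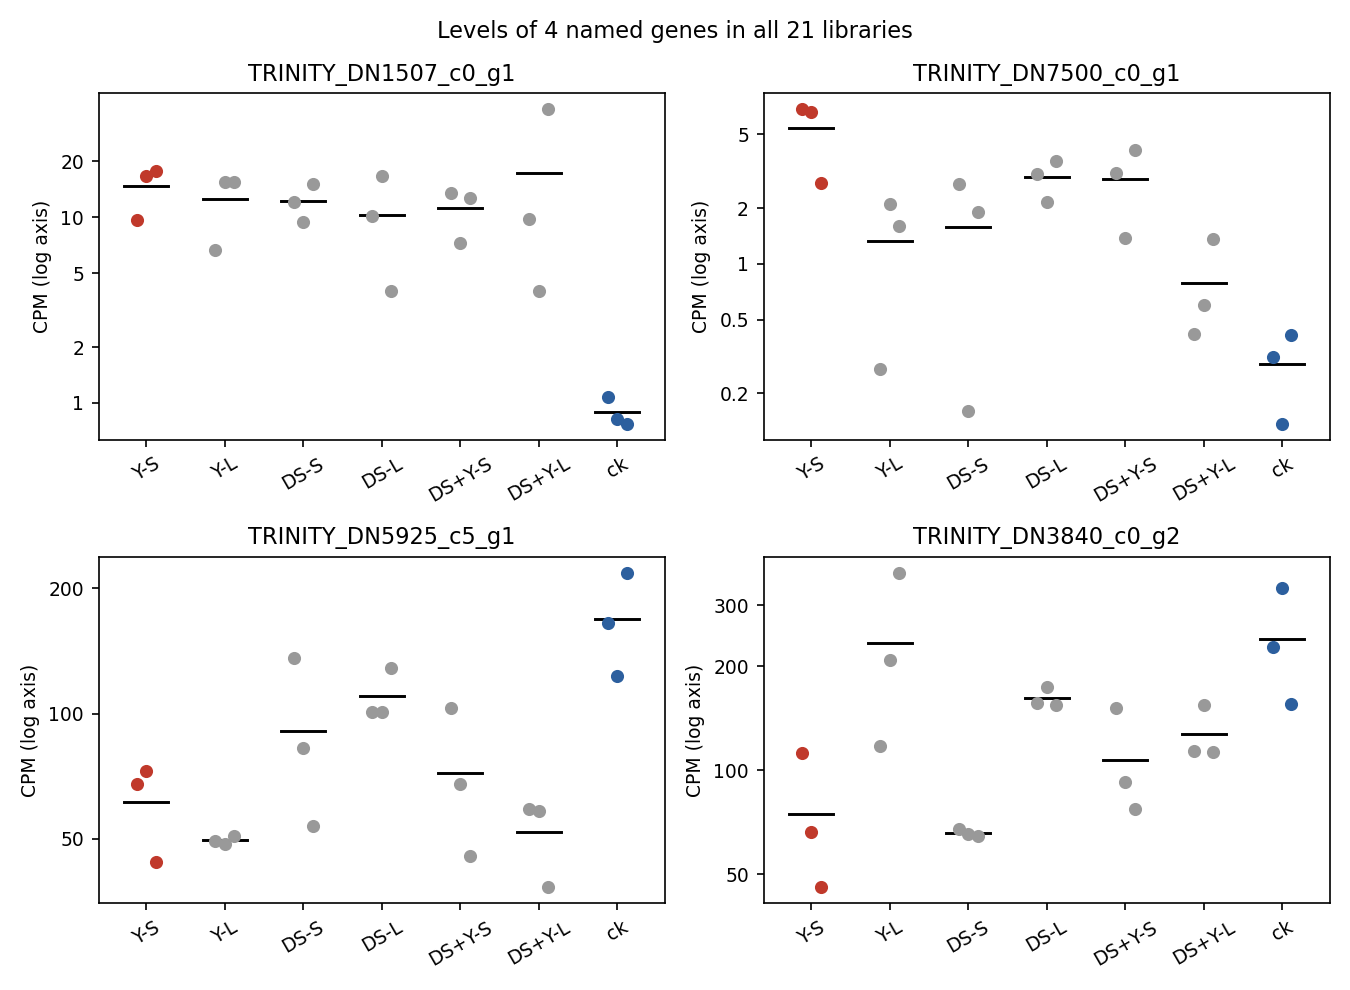
Levels of the 4 named genes in CPM (log axes) in all 21 libraries, with 1 point per library and a bar at each group mean, Y-S in red, ck in blue and the other 5 groups in grey. For TRINITY_DN1507_c0_g1 all 18 treated libraries lie above the ck libraries, which reach 1.07 CPM at most.

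Genes at 0 in 1 of the groups were examined after the data were seen. Among the 38211 genes tested, 3 had 0 counts in all ck libraries and at least 1 CPM in every Y-S library. The reverse held for 31 genes, with 0 counts in all Y-S libraries and at least 1 CPM in every ck library. The most abundant of the 3 had 47.2, 64.5 and 44.5 CPM in Y-S leaves, against 0 in the 3 ck libraries, at least 993-fold higher when ck is set to 3 counts over the group. Its implied effective length was 7.70 bases, and 2 of the 3 genes were under 100 bases by this measure, as were 5.73% of all genes tested. The most abundant of the 31 was at 0 in the Y-S libraries, against 33.9, 20.7 and 25.5 CPM in ck leaves, at least 479-fold lower by the same floor. The 31 genes averaged from 1.14 to 26.7 CPM in ck, with a median of 1.99 CPM, and had a median effective length of 1147 bases.

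Libraries of other groups did not follow their treatment in these genes. The 31 genes reached 1 CPM or more in 25 cases in DS-L replicate 1 and in 29 cases in DS-S replicate 1, whereas replicates 2 and 3 of DS-L and of DS-S had 0 of the 31 at that level. Y-L replicate 2 had 9 of the 31 and DS+Y-L replicate 1 had 4, and the other 7 libraries outside Y-S and ck had 0. The 3 genes absent from ck showed the reverse, with 0 counts in DS-L replicate 1 and DS-S replicate 1. They were all at 1 CPM or more in 12 of the 13 other libraries outside Y-S and ck, and Y-L replicate 2 had 2 of the 3. The labels name nothing that DS-L replicate 1, DS-S replicate 1 and the 3 ck libraries share, and a fit without DS-L replicate 1 and DS-S replicate 1 is given with the calls of the other fits.

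**Figure D5:**
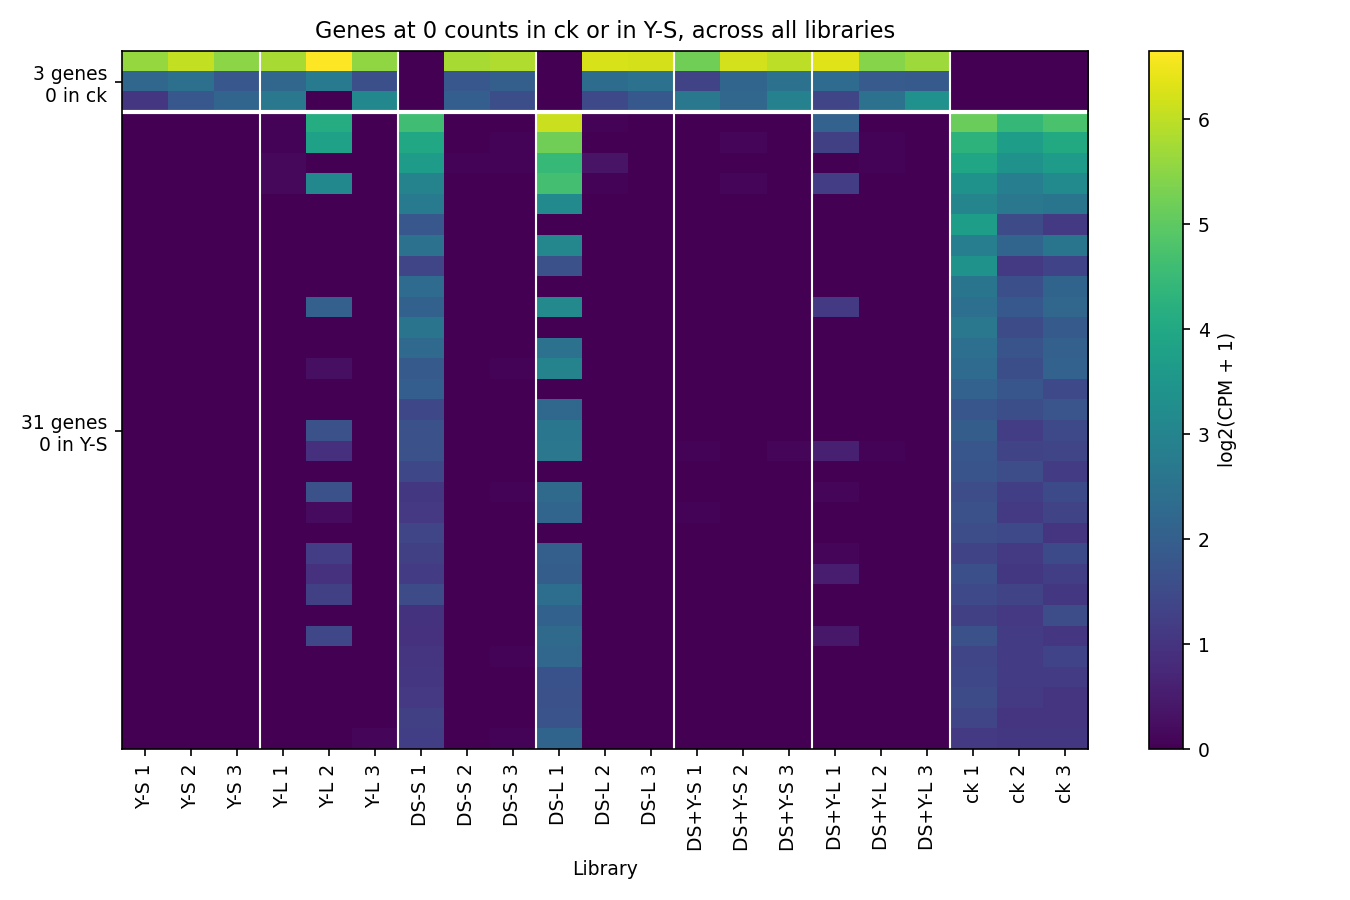
Level as log2(CPM + 1), by colour, of the 34 genes at 0 counts in every ck library (upper 3 rows) or in every Y-S library (lower 31 rows) across all 21 libraries. DS-L 1 and DS-S 1 show the pattern of ck, with 25 and 29 of the 31 lower genes at 1 CPM or more and 0 of the 3 upper genes.

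Fitted to the 6 libraries alone, edgeR called 8 of 30248 genes (0.0264%), 2 higher (0.00661%) and 6 lower (0.0198%) in Y-S leaves, with an adjusted p from 0.0288 to 0.0484. Of the 8, 4 were among the 34. In 7 of the 8, no library of the lower group had more than 1 count, and the remaining gene was TRINITY_DN1507_c0_g1. All 6 lower genes were at 1 CPM or more in DS-L replicate 1 and in DS-S replicate 1. When 1 of the 6 libraries was left out of this fit, it called from 0 to 2 genes. In the fit to all 21 libraries the most abundant gene absent from ck had a standard error of 2.78 on the log2 scale, against 0.585 in the 6 libraries. Leaving out DS-L replicate 1 and DS-S replicate 1 was a choice made once their values were known. Without them the fit called 4 of 38211 genes, all higher in Y-S, of which 2 were among the 34.

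DESeq2 called 79 of the 34443 genes to which it gave an adjusted p (0.229%), with 57 higher (0.165%) and 22 lower (0.0639%) in Y-S leaves, and the 4 named genes were among them. In 33 of the 79 every library of the lower group was at 0. In 29 of the 79, 1 library of the higher group was at least 4-fold above the other libraries of that group. Of the 22 lower genes, 18 were at 1 CPM or more in DS-L replicate 1 and 16 in DS-S replicate 1, against 10, 9 and 9 in Y-S replicates 1, 2 and 3 and from 10 to 17 in the other 13 libraries outside ck. A limma voom fit with library weights called 0 genes (0%), with 3132 at an unadjusted p under 0.05. With no low-count filter, edgeR called 615 of 97456 genes (0.631%), 393 higher (0.403%) and 222 lower (0.228%). Of the 615, 317 had libraries that did not overlap. In 279 of the 615, 1 library of the higher group was at least 4-fold above the other libraries of that group.

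The most abundant transcripts varied between libraries without separating the groups. Among the 100 genes with the highest mean FPKM over the 6 libraries, the median log2 fold change was -0.38 and 26 of the 100 were fitted higher in Y-S. The median absolute log2 fold change was 0.50, against 0.39 over all genes, and the median SD of log2 CPM was 0.864 in Y-S and 0.83 in ck. Of the 100, 7 had libraries that did not overlap, 3 above and 4 below ck, near the 9.82% over all genes tested. The gene with the highest mean had 9671, 11570 and 29852 FPKM in Y-S leaves, against 15044, 5563 and 13427 FPKM in ck leaves (log2 fold change 0.32, SE 0.70). The second had 16760, 7164 and 1699 FPKM in Y-S leaves, against 9986, 28148 and 10631 FPKM in ck leaves (log2 fold change -1.02, SE 0.92). Both genes overlapped between the groups, and Y-S replicate 3 was the highest Y-S library in the first and the lowest in the second.

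The effective length that counts and FPKM imply in each library was compared as well, a measure taken up after the data were seen. It could be read in 15109 genes with at least 50 counts and 1 FPKM in all 6 libraries, each centred on its library's median. In 87.3% of them the groups differed by less than 1.1-fold. A difference of at least 2-fold was found in 33 genes. In 11 of these the centred lengths did not overlap, with 8 longer and 3 shorter in Y-S. At 1.5-fold, 42 of 125 genes did not overlap, with 20 longer and 22 shorter. The largest was 1409, 1473 and 675 bases in Y-S leaves, against 3100, 4116 and 4419 bases in ck leaves, in a gene whose level was 26.7 CPM in Y-S and 27.6 CPM in ck. In another the length was 2223, 2056 and 2122 bases in Y-S leaves, against 1284, 908 and 961 bases in ck leaves. These lengths are printed before centring, and in some genes a single library set the difference. In a gene counted as longer in Y-S, ck replicate 1 had 497 bases, against 4252 and 4290 in ck replicates 2 and 3. The Y-S libraries had 4206, 4271 and 4219 bases. In a gene counted as shorter, Y-S replicate 1 had 299 bases, against 1911 and 1749 in Y-S replicates 2 and 3. The ck libraries had 2147, 2175 and 2176 bases. No test was made of any of these lengths.

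Whether Y-S differed from the groups most like it by name was tested directly. Against Y-L, edgeR called 0 genes (0%), with 1139 (2.98%) at an unadjusted p under 0.05. Against DS-S it called 0 (0%), with 348 (0.911%). DESeq2 called 16 genes (0.0419%) against Y-L and 21 (0.0551%) against DS-S, and limma voom 0 in each. The median absolute log2 fold change was 0.42 for Y-S over Y-L and 0.27 for Y-S over DS-S, against 0.39 for Y-S over ck. Y-S libraries lay outside the range of the Y-L libraries in 3156 genes (8.26%) and outside that of the DS-S libraries in 2124 (5.56%). In their own comparison with ck, Y-L and DS-S share the ck libraries with Y-S. There, Y-L lay outside the ck range in 7762 genes (20.3%), with a median absolute log2 fold change of 0.58. DS-S did so in 3936 genes (10.3%), with a median of 0.37, near the 9.82% and 0.39 of Y-S.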

How the data were processed

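The authors deposited 1 table with a whole-number count and an FPKM value per gene and library, per the file headers. The sources used here name no assembler, aligner or counter. The count test was edgeR 4.0.16, run in R 4.3.3. The filterByExpr function kept 38211 of 97500 genes, which hold at least 99.52% of the counts of each of the 6 libraries. Libraries were scaled by TMM, and glmQLFit and glmQLFTest ran on all 21 libraries by group, with Benjamini-Hochberg adjustment over all genes tested. The common dispersion was 0.383 over the 21 libraries, and 0.239 in the fit to the 6 libraries alone. Log2 CPM used a prior count of 2. Named genes are the 2 higher and 2 lower genes of smallest p with no overlap, a log2 fold change of at least 1 and 5 CPM or more on average where the gene was higher. Comparison, lists and rules were chosen with earlier results of these data known. Alternatives used DESeq2 1.42.0, limma 3.58.1, other scaling, filters and libraries. The procedure was also run on simulated counts, and the outcome is not given here. Replicate pairs differed by a chi-square per degree of freedom of 33.1 or more, so none agreed within sampling noise. The lowest depth of the 6 libraries was 16738824 counts.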

Additional observations from a re-analysis of the deposited data

Results flagged for a closer look

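Dixon's outlier criterion was not applied, since groups of 3 libraries are too small for it. Signals above ck appeared in DS-L, DS+Y-S and DS+Y-L, groups that entered the fit to all 21 libraries but no tested comparison. TRINITY_DN1507_c0_g1 averaged 10.3 CPM in DS-L, 11.2 in DS+Y-S and 17.3 in DS+Y-L, with every library of these groups above all ck libraries. TRINITY_DN7500_c0_g1 averaged 0.791 CPM in DS+Y-L, 2.87 in DS+Y-S and 2.94 in DS-L, again with every library above ck. In DS+Y-L this was nearly a tie at a low level, with replicate 1 at 0.417 CPM, against 0.411 CPM in ck replicate 3. The 3 genes at 0 in ck summed to a mean of 65.9 CPM over the DS+Y-L libraries and 65.8 CPM over the DS+Y-S libraries. They were chosen for having 0 counts in ck, so their ck level was fixed by that choice and the sums test nothing. Most of each sum came from the gene with an implied effective length of 7.70 bases. Its mean was 57.5 CPM over DS+Y-L libraries, and DS+Y-S libraries averaged 57.4 CPM.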

How the results depend on the processing

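For Y-S against ck the count of 0 became 615 without a low-count filter, 79 in DESeq2, 8 in the 6 libraries alone and 4 without DS-L replicate 1 and DS-S replicate 1. Within the 6 libraries alone it ran from 0 to 2 when 1 library was left out. It stayed at 0 with DESeq2 size factors, a robust spread, in limma voom and with any 1 of the 6 libraries left out of the full fit. DS+Y-S replicate 1 had counts on 36755 genes, against at least 47279 in every other library. Without it the count was also 0, with 1651 genes at an unadjusted p under 0.05, against 1216 in the main fit. Genes kept by the filter make up 589 of the 615, and the cause was not tested. For Y-S against Y-L the count of 0 became 308 of 97456 genes without the filter and 16 of 38141 in DESeq2. For Y-S against DS-S it became 255 of 97456 and 21 of 38141. Non-overlapping genes numbered 6383 of 97456 without the filter and 1510 of 16475 at 5 CPM or more. With the filter alone they numbered 3754 of 38211. With 1 library left out, TRINITY_DN1507_c0_g1 ran from -0.0715 to 0.462 in Y-S over Y-L, reversed without Y-L replicate 1, and TRINITY_DN3840_c0_g2 from -0.234 to 0.438 in Y-S over DS-S, reversed without Y-S replicate 1 (log2). The difference in the share of the 100 most abundant genes ran from -4.61 to -0.451 percentage points with 1 library left out. Whether the replicate numbers pair the samples was not tested. Same-numbered Y-S and ck libraries deviated together with r = 0.0493, 0.104 and 0.32, and differently numbered ones with r from -0.415 to 0.436. With the replicate number as a block the count was 0 in all 3 comparisons, with 1093 genes at an unadjusted p under 0.05 against ck. Genes under 1 CPM had a median standard error of 1.15 on the log2 scale, against 0.76 over all genes tested. The part of depth in this was not tested.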
